A study of Saccharomyces cerevisiae with 9 samples.

Results

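The genes examined encode the proteins of the small (40S) subunit of the cytosolic ribosome of the budding yeast Saccharomyces cerevisiae. They were taken by name, as all genes whose standard symbol is RPS, a number and, for duplicated genes, the letter A or B. The reference gene table holds 56 such genes for 32 proteins, and all 56 had a probe among the 6947 on the arrays, with a value on every one of 9 arrays and none at the lowest ratio reported. Of them, 48 form 24 pairs of A and B copies and 8 are single-copy genes.

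The small subunit binds messenger RNA and decodes it, with the decoding site between its head and its body. Yeast keeps many of these genes as pairs left by an ancient whole-genome duplication, and both copies of a pair encode the same or nearly the same protein. Their transcription, driven by Rap1, Fhl1 and Ifh1 at the promoter, follows growth through the TOR and protein kinase A pathways, so that ribosomal protein genes usually move as a group and opposite to stress genes.

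On 6 arrays RNA of m8, 1 of the mutator lines, after 6700 generations of experimental evolution had been labelled with Cy5 and set against Cy3-labelled RNA of its own mutator ancestor. On 3 arrays RNA of an evolved non-mutator, also after 6700 generations, had been set in the same dyes against that of its non-mutator ancestor. No label names the allele behind the mutator state or other genotype details, and each evolved strain stands for 1 line. All strains were cultured in 3 ml of YPD, which is a rich medium, and taken at an OD600 near 0.3.

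Mutator RNAs 1, 2 and 3 were each hybridised in a first round and again in a repeat round, where repeat array 2 used ancestor RNA 1. The first-round and repeat array of an evolved RNA were averaged, which left 3 replicates. By the labels, mutator replicates 1 and 2 shared ancestor RNA 1, so they were not fully independent. The fit took no account of this. No label says that replicates were separate cultures, so p-values cover only the spread of these samples, and that spread may be technical. Values are log2 ratios, centred on each array's median. Evolved over ancestor is the likely direction, as the labels give the dyes but the values carry no statement of it. Without centring, mutator values would be 0.08 to 0.12 higher on each array, and non-mutator values 0.00 to 0.02 higher. Precision is limited by how few arrays there are, and no signal intensities were used here, so levels of different genes were not compared.

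Small-subunit genes rose in the mutator nearly as a whole, by a modest amount. Of 56 members, 54 passed as higher and 0 as lower (limma, adjusted p under 0.05 by Benjamini-Hochberg across the 6866 probes fitted). Over all those probes 37.3% passed as higher and 37.8% as lower. The median of the members was 0.46 ± 0.10 (SD over 3 replicates) on the log2 scale, against 0.005 ± 0.006 for all probes tested. The median of all probes lies near 0 because each array was centred. Member means spanned 0.09 to 1.07. Increases of at least 1.5-fold were found for 13 members and of at least 2-fold for 3. On single arrays 49 to 56 members lay above 0. On all 6 arrays 47 members lay above 0, against 30.9% of all probes. Shares of all probes at these fold changes, or above 0 on single arrays, were not counted.

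Both parts of the subunit shared the increase. By textbook position, 21 of 22 members that encode head proteins passed as higher, with a median of 0.44 ± 0.12 (SD, n = 3), and 33 of 34 that encode proteins of the body and platform, with a median of 0.47 ± 0.10. By copy, 22 of 24 A genes passed (median 0.45 ± 0.14), 24 of 24 B genes (0.50 ± 0.11) and 8 of 8 single-copy genes (0.45 ± 0.05). These medians were not tested against each other. The 82 genes of the large subunit, RPL and RPP, had a median of 0.45 ± 0.09, with 77 higher and 0 lower.

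The count held on a fit with the hybridisation round as a random block (49 higher) but fell to 34 when arrays were scaled to the same spread, with 0 lower in both. On that scale 14 members passed as higher in the non-mutator. Shares over all probes were not counted for these fits, so the counts cannot be set against them.

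**Figure D1:**
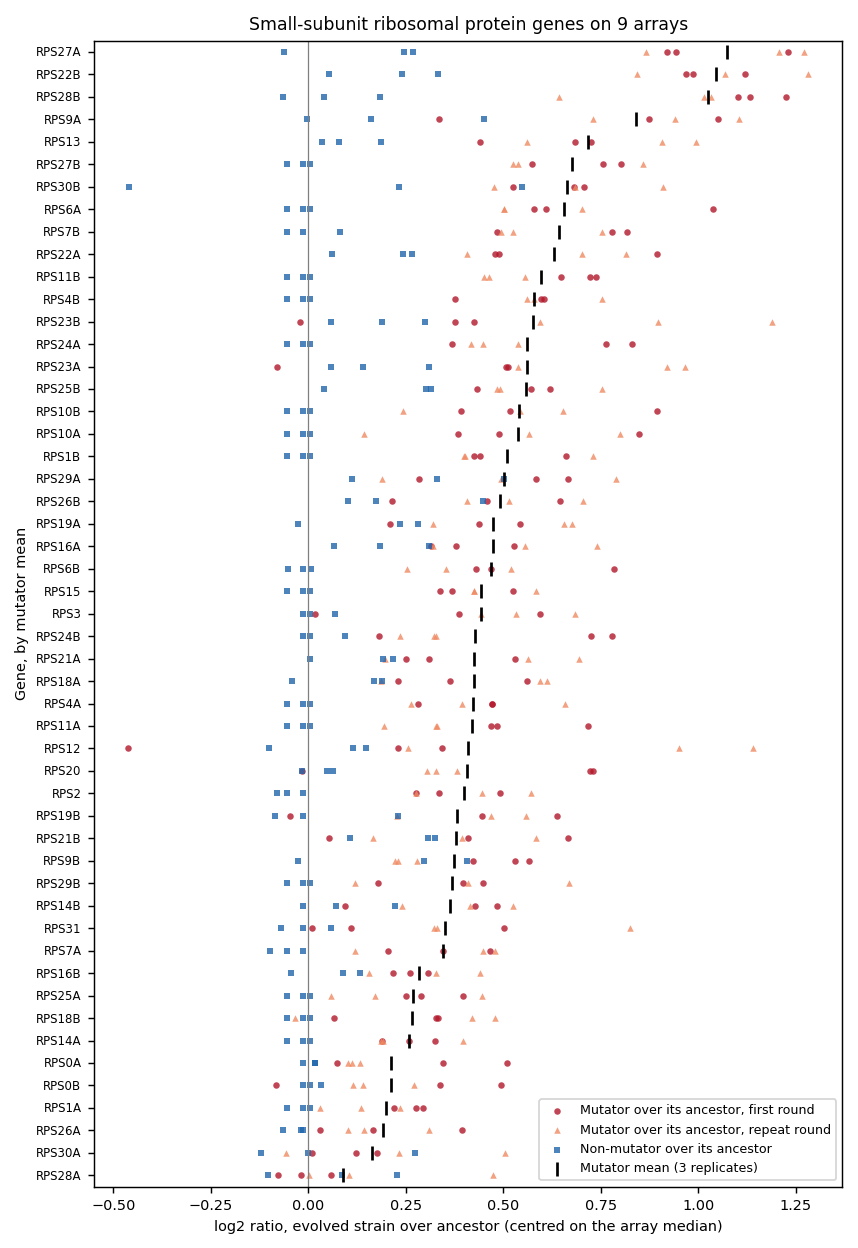
log2 ratio of evolved strain over ancestor (horizontal axis) for 51 of the 56 small-subunit genes (vertical axis, ordered by mutator mean), 1 point per array: circles for first-round and triangles for repeat mutator arrays, squares for non-mutator arrays, and a bar for the mutator mean of 3 replicates. RPS27A, RPS22B and RPS28B lead, RPS30A and RPS28A close the order, and many genes share the same non-mutator positions.

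RPS27A, RPS22B and RPS28B, genes of different proteins, stood at the top, all above 2-fold. RPS27A (YKL156W), for a zinc-binding protein of the platform, ran from 0.87 through a median of 1.07 to 1.27 on the mutator arrays, and stood at -0.06, 0.25 and 0.27 on non-mutator arrays 2, 3 and 4. Its mutator mean was 1.07 ± 0.17 (SD, n = 3), which is 2.10-fold (adjusted p = 6.9e-05). All 6 mutator arrays lay above all 3 non-mutator arrays.

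RPS22B (YLR367W), for a protein of the body, ran from 0.84 through 1.03 to 1.28 in the mutator, against 0.05, 0.33 and 0.24 on non-mutator arrays 2, 3 and 4. Its mean was 1.04 ± 0.15, or 2.06-fold (adjusted p = 4.0e-05), and the groups did not overlap.

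RPS28B (YLR264W) encodes a head protein next to the exit of the mRNA channel, and its protein is known to bind a hairpin in its own messenger and promote that messenger's decay. It ran from 0.64 through 1.07 to 1.23 in the mutator, against -0.07, 0.18 and 0.04 on non-mutator arrays 2, 3 and 4. The mean was 1.02 ± 0.14, or 2.03-fold (adjusted p = 3.0e-05). The groups did not overlap, and the lowest mutator value came from repeat array 3.

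RPS9A (YPL081W), for a body protein at the mRNA entry site, followed with 0.84 ± 0.10, or 1.79-fold (adjusted p = 0.00023). It ranged from 0.33 through 0.91 to 1.10 in the mutator, against 0.00, 0.45 and 0.16 on non-mutator arrays 2, 3 and 4, so its groups overlapped.

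Single-copy genes were all higher in the mutator, with RPS13 at their head. RPS13 (YDR064W), for a protein at the interface with the large subunit, ran from 0.44 through 0.70 to 0.99, against 0.04, 0.19 and 0.08 on non-mutator arrays 2, 3 and 4. Its mean of 0.72 ± 0.10 was 1.64-fold (adjusted p = 4.9e-05). It was the only single-copy gene among the 5 highest members.

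RPS15 and RPS3 encode head proteins, near the decoding site and at the mRNA entry. RPS15 (YOL040C) ran from 0.34 through 0.42 to 0.58, against 0.00, -0.06 and -0.01 on non-mutator arrays 2, 3 and 4 (mean 0.44 ± 0.04, adjusted p = 0.00011). RPS3 (YNL178W) ran from 0.02 through 0.49 to 0.68, against 0.00, 0.07 and -0.01 (mean 0.44 ± 0.19, adjusted p = 0.0017). Groups were apart for RPS15, while 1 mutator array of RPS3 lay among the non-mutator values.

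RPS20, RPS2 and RPS31 stood below the median of the members. RPS20 (YHL015W), for a head protein, ran from -0.02 through 0.35 to 0.73, against -0.02, 0.06 and 0.05 on non-mutator arrays 2, 3 and 4 (mean 0.41 ± 0.22, adjusted p = 0.0043). RPS2 (YGL123W), for a body protein at the mRNA entry, ran from 0.28 through 0.39 to 0.57, against -0.08, -0.06 and -0.01 (mean 0.40 ± 0.11, adjusted p = 0.00059). RPS31 (YLR167W), made as a fusion with ubiquitin, ran from 0.01 through 0.33 to 0.82, against -0.07, 0.06 and -0.01 (mean 0.35 ± 0.16, adjusted p = 0.0036). Of these, the groups were apart for RPS2 only.

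RPS12 (YOR369C), for a head protein, had the widest range of the members. It ran from -0.46 through 0.30 to 1.14 in the mutator, against -0.10, 0.15 and 0.11 on non-mutator arrays 2, 3 and 4, and its mean was 0.41 ± 0.29 (adjusted p = 0.015). Its call was lost under 6 of 22 alternatives.

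At the low end stood mostly A copies of pairs. RPS28A (YOR167C) ran from -0.08 through 0.03 to 0.47 in the mutator, against -0.10, 0.23 and 0.08 on non-mutator arrays 2, 3 and 4, with a mean of 0.09 ± 0.16 (adjusted p = 0.36). RPS30A (YLR287C-A), for a small protein at the mRNA entry, ran from -0.06 through 0.15 to 0.50, against -0.12, 0.27 and 0.00, with a mean of 0.16 ± 0.13 (adjusted p = 0.13). These were the 2 members that did not pass, and their groups overlapped.

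RPS26A (YGL189C), for a protein that contacts mRNA at the exit channel, ran from 0.03 through 0.15 to 0.39, against -0.06, -0.02 and -0.01 on non-mutator arrays 2, 3 and 4. Its mean was 0.19 ± 0.14 (adjusted p = 0.027), and its call was lost in 8 of 22 alternatives. Among these were the fits without mutator replicate 2 (adjusted p = 0.10), non-mutator replicate 3 (0.0507) or non-mutator replicate 4 (0.053). RPS1A (YLR441C), for a platform protein, ran from 0.03 through 0.23 to 0.29, against 0.00, -0.06 and -0.01 (mean 0.20 ± 0.06, adjusted p = 0.0061). RPS0B (YLR048W), for a protein at the back of the platform, ran from -0.08 through 0.20 to 0.49, against 0.00, 0.03 and -0.01 (mean 0.21 ± 0.11, adjusted p = 0.011), and its call was lost under 6 alternatives, one of them without mutator replicate 3 (adjusted p = 0.0503). RPS26A and RPS1A did not overlap the non-mutator values, while RPS0B did.

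The rounds gave close medians and a few genes that differed between them. The median of the members was 0.48 on repeat arrays and 0.41 on first-round arrays, and 33 of 56 members were higher in the repeat. Tested on each round alone, 52 members passed as higher on repeat arrays and 47 on first-round arrays, with 0 lower in either. Shares over all probes were not counted for single rounds. Across the 56 members Pearson's r between repeat and first-round means was 0.633 (Spearman's rho 0.602), a description over genes that share arrays and RNA.

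RPS12 averaged 0.78 on repeat arrays and 0.04 on first-round arrays, the widest gap among members. RPS23A and RPS23B, a pair for the protein at the decoding centre, moved together: RPS23A averaged 0.81 on repeat and 0.31 on first-round arrays, and RPS23B 0.89 and 0.26 in the same order. RPS28B leaned the other way, with 0.90 on repeat arrays and 1.15 on first-round arrays. Gaps of similar size to that of RPS28B were found for RPS31 (0.49 on repeat and 0.21 on first-round arrays), RPS11A (0.28 and 0.56), RPS24B (0.29 and 0.56) and RPS9B (0.24 and 0.51).

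First-round array 1 had the widest spread of the members (SD 0.34 across genes, against 0.20 to 0.28 on the other mutator arrays) and 7 members at or below 0. Without that array 54 members passed as higher, the same number as with it.

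**Figure D2:**
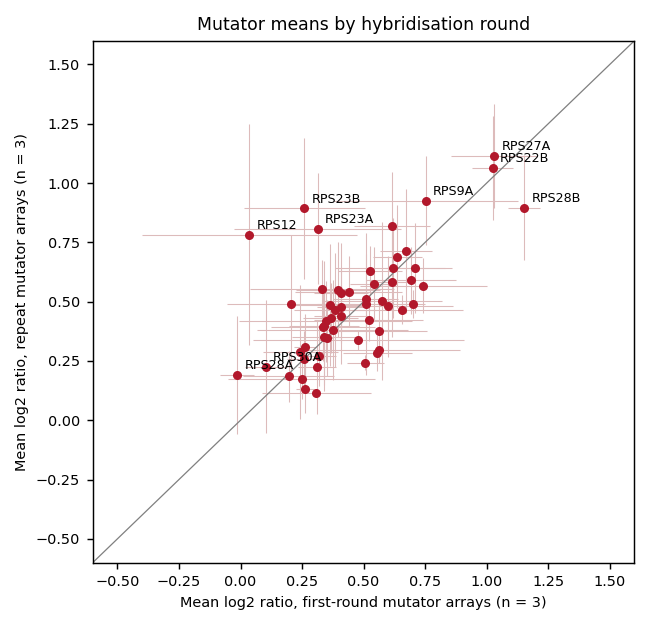
Mean log2 ratio of each small-subunit gene on the repeat mutator arrays (vertical axis, n = 3) and on the first-round mutator arrays (horizontal axis, n = 3), with SD bars and the line of equality. RPS12, RPS23A and RPS23B lie above the line, at 0.78, 0.81 and 0.89 on repeat arrays.

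Copies of a pair can be compared within each array, since both probes lie on it, but near-identical coding sequences can cross-hybridise, which pulls a difference towards 0. Probe sequences were not used here, so the part of cross-hybridisation was not tested. In the mutator, the median size of the A minus B difference over 24 pairs was 0.17 on the log2 scale, and the median difference between any pair of the 56 members, over all 1540 pairings, was 0.18. Copies were thus about as far apart as unrelated members. Across the 24 pairs, A and B means had a Pearson's r of 0.029 in the mutator (Spearman's rho 0.056), given as a description.

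Differences between copies recurred on separate arrays, which carry the same evolved RNAs in both rounds. By the labels evolved RNA was in Cy5 on every array, so dye effects of single probes were not tested. For 15 of 24 pairs the sign was the same on all 6 mutator arrays, with A above B in 6 and B above A in the other 9. The same count was not made for other pairings of members. Over the 24 pairs, repeat and first-round differences had a Pearson's r of 0.875 (rho 0.953), from the same evolved RNAs hybridised again.

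RPS28 had the widest gap. A minus B was -1.15, -1.17 and -1.18 on first-round arrays 1, 2 and 3, and -0.91, -0.56 and -0.64 on repeat arrays 1, 2 and 3. The mean was -0.94 ± 0.09 (SD, n = 3) in the mutator and 0.02 ± 0.05 in the non-mutator, where A minus B was -0.04, 0.04 and 0.05 on arrays 2, 3 and 4. B was therefore above A on every mutator array, and non-mutator differences lay on both sides of 0.

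RPS30 encodes the same protein from both copies, yet B lay above A on all 6 mutator arrays. A minus B was -0.51, -0.58 and -0.52 on first-round arrays 1, 2 and 3, and -0.53, -0.41 and -0.45 on repeat arrays 1, 2 and 3, with a mean of -0.50 ± 0.02. In the non-mutator it was 0.34, -0.28 and -0.23 on arrays 2, 3 and 4, so its sign changed there.

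RPS9 leaned to the A copy on 5 of 6 mutator arrays. A minus B was -0.09, 0.35 and 0.48 on first-round arrays 1, 2 and 3, and 0.88, 0.66 and 0.50 on repeat arrays 1, 2 and 3, with a mean of 0.46 ± 0.06. The replicate means lay close together, while the arrays behind them ranged from -0.09 to 0.88. Non-mutator values were 0.02, 0.04 and -0.14 on arrays 2, 3 and 4.

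RPS22 leaned to the B copy on all 6 arrays. A minus B was -0.09, -0.64 and -0.48 on first-round arrays 1, 2 and 3, and -0.37, -0.47 and -0.44 on repeat arrays 1, 2 and 3, with a mean of -0.41 ± 0.17. RPS27 leaned to the A copy on all 6, with 0.43, 0.19 and 0.35 on first-round arrays 1, 2 and 3, and 0.68, 0.41 and 0.33 on repeat arrays 1, 2 and 3, and a mean of 0.40 ± 0.14. In the non-mutator RPS22 differed by 0.01, -0.07 and 0.00 on arrays 2, 3 and 4, and RPS27 by -0.07, 0.30 and 0.28.

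Among further pairs with one sign on all mutator arrays, B was the higher copy for RPS1 (-0.31 ± 0.08), RPS26 (-0.30 ± 0.02), RPS7 (-0.30 ± 0.19), RPS25 (-0.29 ± 0.07) and RPS4 (-0.15 ± 0.05), among others. For RPS16 (0.19 ± 0.06), RPS6 (0.19 ± 0.06), RPS18 (0.16 ± 0.04), RPS24 (0.13 ± 0.01) and RPS29 (0.13 ± 0.03) it was A. RPS6 encodes a phosphoprotein downstream of TOR signalling, and RPS16 a head protein that reaches the P-site tRNA. RPS26, RPS25, RPS16 and RPS29 had the same sign on all 3 non-mutator arrays as in the mutator, with non-mutator means of -0.27 ± 0.17, -0.24 ± 0.18, 0.13 ± 0.04 and 0.34 ± 0.22. Of these, RPS25A and RPS29B sat on all 3 non-mutator arrays, and RPS26A on 1, at a ratio shared by many probes, described with the non-mutator values. RPS1 and RPS7 also kept their sign there, but with both copies at that ratio on at least 2 of 3 arrays.

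The pairs RPS0, RPS10 and RPS23 were nearly equal in the mutator. RPS0 had A minus B of 0.00 ± 0.00 (SD, n = 3), although the first-round arrays averaged 0.06 and the repeat arrays -0.06. RPS10, for a protein at the mRNA entry side of the head, had -0.002 ± 0.05, and RPS23 had -0.02 ± 0.03. On single mutator arrays A minus B ran from -0.16 to 0.16 for RPS0, from -0.13 to 0.15 for RPS10 and from -0.23 to 0.13 for RPS23, with 3 of 6 above 0 in each.

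**Figure D3:**
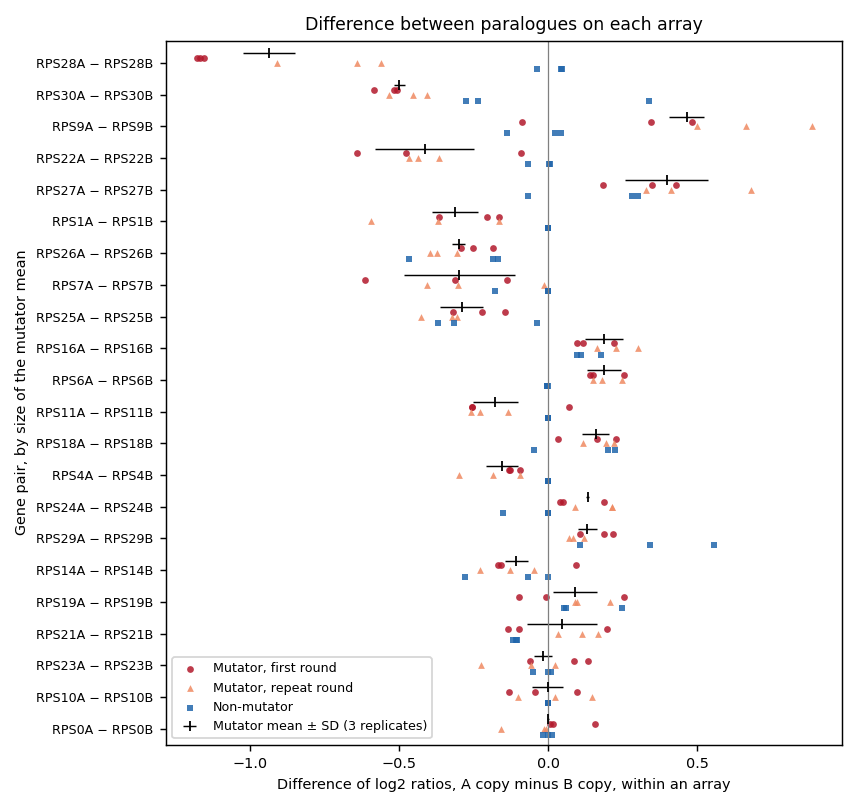
Difference of log2 ratios between the A and the B copy within an array (horizontal axis) for 22 of the 24 gene pairs (vertical axis, by size of the mutator mean), with circles for first-round and triangles for repeat mutator arrays, squares for non-mutator arrays, and the mutator mean ± SD of 3 replicates in black. RPS28 lies farthest from 0, with A minus B from -1.18 to -0.56 on mutator arrays, and several pairs have non-mutator points stacked at 0.

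In the non-mutator 0 of 56 members passed in either direction, against 10.2% of all probes as higher and 11.1% as lower (limma, adjusted p under 0.05). At an unadjusted p under 0.05 there were 9 members (16.1%), against 34.9% of all probes. All 9 were among the 26 members that never sat at a ratio shared by many probes, described below. The share of 16.1% therefore reflects the members at that ratio as well. The median of the members was 0.02 ± 0.04 (SD, n = 3), and their means ran from -0.06 to 0.31. The count of 0 became 14 with arrays scaled to the same spread, 5 with each group fitted alone and 2 with only probes that had a value on all 9 arrays, all higher. It also became 2 without mutator replicate 2 and 1 without non-mutator replicate 2. For these alternatives the shares over all probes were not counted.

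These values cannot all be read as measurements of single genes, because on each non-mutator array many probes had the same deposited ratio. On array 2 a window 0.001 wide from a ratio of 1.015 held 283 probes (4.09%), and 21 of the members (37.5%). On array 3 such a window from 0.966 held 288 probes (4.16%), with 21 members (37.5%), and on array 4 one from 0.991 held 320 probes (4.62%), with 30 members (53.6%). Windows of the same width next to these held 17.4 to 20.1 probes on average. On the mutator arrays the fullest window held 18 to 48 probes and 0 members. Why these probes share a ratio was not tested, as signal intensities were not used here.

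Members fell into sets by this measure. On all 3 non-mutator arrays 18 members sat at the shared ratio (32.1%, against 3.59% of probes with 3 values), among them RPS1A, RPS1B, RPS4A, RPS4B, RPS6A, RPS10A, RPS10B, RPS11A, RPS11B, RPS14A, RPS15, RPS18B, RPS24A, RPS25A, RPS27B and RPS29B. Their non-mutator means were all -0.02 and their non-mutator SDs all 0.03, whatever the gene. The fit took a common spread from both groups. This SD therefore also entered the p-values of these 18 members in the mutator and in the difference. A further 12 sat at the shared ratio on 1 or 2 arrays, and 26 on none. Among large-subunit genes 27 of 82 sat there on all 3 arrays.

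All 26 members that never sat at the shared ratio had a non-mutator mean above 0, from 0.03 to 0.31, with a median of 0.17. Among all probes that never sat there and had 3 values, 51.3% had a mean above 0. Above 0 on all 3 arrays were 13 of the 26 (50%), against 33.5% of those probes. By array, the median of the 26 was 0.00 on array 2 (13 of 26 above 0), 0.29 on array 3 (26 of 26) and 0.19 on array 4 (25 of 26). Values above 0 thus lay mostly on arrays 3 and 4, and none of the 26 passed. Of the 41 large-subunit genes that never sat at the shared ratio 35 had a mean above 0.

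RPS29A (YLR388W), for a zinc-binding head protein, had the highest non-mutator mean, 0.31 ± 0.19 (SD, n = 3), from 0.11, 0.50 and 0.33 on arrays 2, 3 and 4 (adjusted p = 0.058). RPS30B was the most scattered, at -0.46, 0.55 and 0.23 on arrays 2, 3 and 4. Non-mutator A minus B values of 0.00 on every array, as for RPS4 and RPS10, stem from both copies sitting at the shared ratio and say nothing of the copies.

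**Figure D4:**
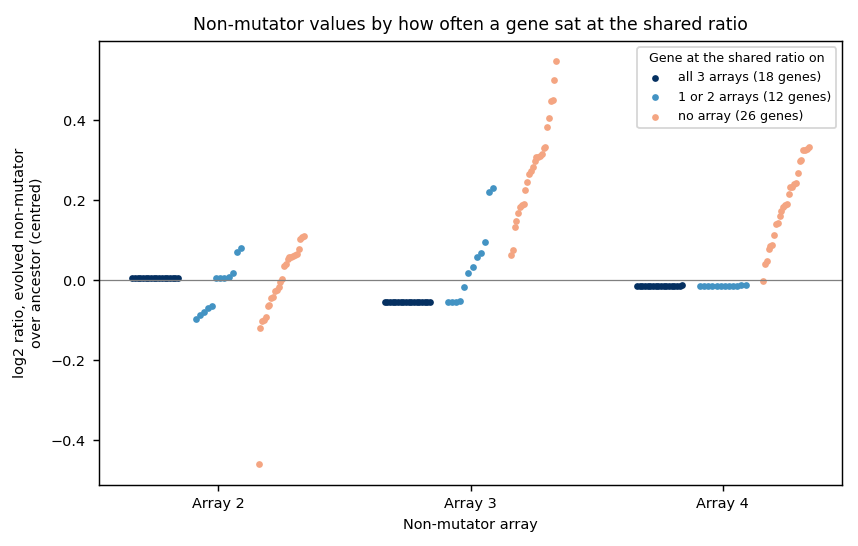
log2 ratio of the evolved non-mutator over its ancestor (vertical axis) for the 56 small-subunit genes on each non-mutator array (horizontal axis), coloured by the number of arrays on which the gene sat at the ratio shared by many probes. The 18 genes at the shared ratio on all 3 arrays form flat rows, while the 26 genes never at it spread upwards on arrays 3 and 4, with medians of 0.29 and 0.19.

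The change in the mutator exceeded that in the non-mutator for most members. The difference, mutator minus non-mutator, passed as higher for 44 of 56 and as lower for 0 (limma, adjusted p under 0.05), against 33.0% of all probes as higher and 30.9% as lower. All 6 mutator arrays lay above all 3 non-mutator arrays for 34 members (60.7%), against 28.3% of probes with a value on all 9 arrays, and below them for 0. The 34 held 17 of the 18 members at the shared non-mutator ratio on all 3 arrays and 7 of the 12 at it on 1 or 2. Of the 26 members never at it, 10 were among the 34. The largest differences were those of RPS28B (0.97 ± 0.10, SE of the fit, adjusted p = 0.00028), RPS27A (0.92 ± 0.13, adjusted p = 0.00095) and RPS22B (0.84 ± 0.11, adjusted p = 0.00077).

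The 12 members whose difference did not pass were RPS0A, RPS0B, RPS9B, RPS12, RPS21A, RPS21B, RPS26A, RPS26B, RPS28A, RPS29A, RPS30A and RPS30B. RPS29A stood at 0.50 ± 0.16 in the mutator and 0.31 ± 0.19 in the non-mutator, a difference of 0.19 (adjusted p = 0.24). For RPS21B, 0.38 ± 0.22 in the mutator stood against 0.25 ± 0.12 in the non-mutator, a difference of 0.13 (adjusted p = 0.39).

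The count of 44 depended on the fit, and shares over all probes were not counted for the other fits. It was 18 with the hybridisation round as a random block. It was 19 with arrays scaled to the same spread, where RPS16A, RPS19A, RPS22A, RPS23A, RPS23B and RPS25B, among others, turned below 0 without passing. With shared non-mutator ratios set to missing, 32 members could be tested, those at such a ratio on at most 1 array, of which 30 passed as higher in the mutator and 18 in the difference. For the 18 members at the shared ratio on all 3 arrays, all of which passed, the difference is one from a value common to many probes.

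Genes for assembly of the small subunit had larger values than the subunit's own genes. Of 18 assembly factor genes 17 rose in the mutator and 0 fell, with a median of 1.23 ± 0.06 (SD, n = 3), among them PNO1 (1.80), RRP12 (1.72), BUD23 (1.69), whose product methylates the small-subunit RNA, and NOP14 (1.64), for a protein of the early processome. The kinase gene HRR25 stood at -0.10 (adjusted p = 0.22). In the non-mutator 4 of the 18 rose and 0 fell, with a median of 0.14 ± 0.07. Of all probes, 37.3% passed as higher in the mutator and 10.2% in the non-mutator. All 3 genes for dedicated chaperones rose in the mutator: TSR2, which escorts the Rps26 protein, by 1.23 ± 0.09, TSR4, for the Rps2 protein, by 0.63 ± 0.10, and YAR1, for the Rps3 protein, by 0.42 ± 0.04. Beside them, RPS26A and RPS26B stood at 0.19 and 0.49, RPS2 at 0.40 and RPS3 at 0.44.

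Regulators of these genes moved both ways in the mutator, with 5 of 10 higher, 3 lower and 2 that did not pass. These counts are close to the 37.3% and 37.8% of all probes and say nothing particular of regulators. The activator genes RAP1 (0.67 ± 0.11), FHL1 (0.76 ± 0.29) and IFH1 (1.34 ± 0.71) rose, as did the kinase gene SCH9 (0.54 ± 0.05) and the repressor gene TOD6 (1.58 ± 0.02). The repressor genes DOT6 (-0.44 ± 0.11) and STB3 (-0.43 ± 0.07) fell, and so did the activator gene SFP1 (-0.24 ± 0.10). CRF1, for a corepressor, stood at 0.56 ± 0.76 (adjusted p = 0.085) and HMO1, for a promoter-binding protein, at 0.03 ± 0.18 (adjusted p = 0.73). The ribosome-bound proteins ASC1 and STM1 had 0.60 ± 0.02 and 0.38 ± 0.03, both of which passed. All 10 stress marker genes fell, with a median of -3.76 ± 0.11, and their part in the result was not tested.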

How the data were processed

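Two-colour expression arrays of yeast total RNA were used, 6 for the mutator and 3 for the non-mutator. The deposited values are linear ratios, read as evolved strain (Cy5) over ancestor (Cy3), the likely direction from the dyes per the labels. Scaling, background correction and software: not given in the sources used here. Probe names were matched to locus tags of the R64 RefSeq table (5840 of 6947 matched), used for symbols only. The lowest ratio, 0.01 (tolerance 1e-04), was set to missing; log2 ratios were centred per array. The 6866 probes measured in 2 or more replicates of each group were fitted in limma 3.58.1 (R 4.3.3) as group means (4 residual degrees of freedom), two-sided, with Benjamini-Hochberg adjustment over all of them. Tested on simulated data for the mutator comparison (6686 probes), the fit recovered 69.0% of shifts of 0.5 and 94.0% of shifts of 1. It made 9 false calls among 6486 unchanged probes. The simulation shifted 100 probes by each size, far fewer than passed in the mutator, so these rates need not hold for the real data. Replicate numbers come from titles; descriptions number non-mutator arrays 3, 4 and 2 as 2, 3 and 4. Members, lists and tests were chosen with earlier results of these data known. Members given with array values were the 5 highest, the 5 lowest, single-copy genes, those that did not pass, and the 5 widest and 3 closest pairs; other members are given more briefly, and those singled out for round or non-mutator values were named after these were seen. From lists outside the members, all genes, or up to 4 with the smallest p, were named; HRR25 was added after its values were seen, as the 1 assembly factor gene that did not pass. Alternatives covered centring, scaling, rounds, blocks, filters and left-out replicates; 2 were added after seeing the data. Figures were drawn in Python 3.11.15 with matplotlib 3.10.9. Values of 5 members, and of 2 pairs, are not reported here by gene; counts and medians include them, except the search for single arrays that stand apart and the calls of single genes counted over alternatives.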

Additional observations from a re-analysis of the deposited data

Results flagged for a closer look

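Single arrays stood apart from the other 5 mutator arrays for 3 of 51 members tested, where chance would pick about 1 in 20 tested groups. The count is close to that rate, so the flags say little of these genes. RPS28B was at 0.64 on repeat array 3, against 1.01 to 1.23 on the others. RPS28A was at 0.47 on repeat array 2, against -0.08 to 0.10. RPS6A was at 1.04 on first-round array 1, against 0.50 to 0.70.

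Mutator and non-mutator changes differed by the test of the difference itself in 44 members, all with the mutator higher (log2, mutator minus non-mutator). Of members never at the shared non-mutator ratio, these included RPS28B (0.97), RPS27A (0.92), RPS22B (0.84), RPS9A (0.64), RPS13 (0.62), RPS22A (0.44) and RPS23B (0.40). They also included RPS23A (0.39), RPS20 (0.38), RPS25B (0.34), RPS18A (0.32), RPS19A (0.31), RPS16A (0.29) and RPS16B (0.23). Of members at it on 1 or 2 arrays, they were RPS7B (0.64), RPS6B (0.49), RPS2 (0.45), RPS3 (0.42), RPS24B (0.40), RPS7A (0.40), RPS31 (0.36), RPS19B (0.34) and RPS14B (0.27). For members at it on all 3 arrays the difference is that from a ratio many probes share. Among these were RPS27B (0.70), RPS6A (0.68), RPS11B (0.62), RPS4B (0.60), RPS24A (0.58), RPS10B (0.56), RPS10A (0.56), RPS1B (0.53) and RPS15 (0.46). They also held RPS4A (0.44), RPS11A (0.44), RPS29B (0.39), RPS25A (0.29), RPS18B (0.29), RPS14A (0.28) and RPS1A (0.22).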

How the results depend on the processing

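Over 22 alternatives, 30 to 55 members passed as higher in the mutator and 0 as lower, and 18 to 49 had the higher change in the mutator, with 0 lower in the 21 that give it. Shares over all probes were not counted for the alternatives. With arrays scaled to the same spread, 34 rose in the mutator (median 0.35), 14 rose in the non-mutator and 19 differed. On that scale some differences turned below 0, none past the threshold. Of members whose difference had passed unscaled, these included RPS25B (-0.16), RPS16A (-0.14), RPS19A (-0.070), RPS23B (-0.039), RPS22A (-0.032) and RPS23A (-0.014). Of members whose difference had not passed, they were RPS29A (-0.45), RPS21B (-0.38), RPS9B (-0.31), RPS26B (-0.26), RPS28A (-0.11) and RPS21A (-0.043). With shared non-mutator ratios set to missing, 30 rose, 18 differed, the non-mutator median was 0.15, the median size of A minus B was 0.24 and 6 pairs kept one sign, over the 32 members and fewer pairs this left. The differing count was 18 with the round as a random block and 23 at adjusted p under 0.01. In the non-mutator, 5 rose with each group fitted alone, 2 with complete probes only, and 0 to 2 without single replicates. Leaving out single replicates gave 52 to 54 higher in the mutator and 30 to 42 in the difference. With the replicate number as a random block, 54 members rose and 42 differed. Same-numbered samples of the groups deviated with r = -0.036 and 0.017 for title numbers 2 and 3, so these numbers give no pairing; the numbers in the descriptions were not tried. Apart from what is given above, the causes were not tested. Mutator values of 51 single genes lost their call in 49 gene-by-alternative cases, gained it in 2 and stayed on the same side of the threshold in 1049, with 0 reversed. How much signal over background limits these values was not tested.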
